A study of Homo sapiens with 4 samples.

Results

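SNAI1, SNAI2, ZEB1, ZEB2 and TWIST1, which encode transcription factors of the epithelial-to-mesenchymal transition (EMT), and VIM, CDH2, CDH11, CD44 and FN1, which encode proteins that mark mesenchymal cells, were examined in RNA-seq of MDA-MB-231 cells. MDA-MB-231 is a widely used human line derived from a breast cancer without hormone receptors or HER2 amplification (triple-negative), and has an invasive, mesenchymal habit. The genes were taken by symbol from the deposited table, in which 8 of the 10 have at least 1 row. They account for 24 of the 43596 listed transcripts and for 8 of the 15113 listed genes. ZEB2 and TWIST1 are not listed, and no level is given for them.

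The cells had been exposed for 24 h to DMSO, the solvent, in 2 libraries, or to 10 µM KH-3, a small molecule that inhibits binding of the RNA-binding protein HuR to its target RNAs, in the other 2. All libraries came from the same line, so the groups differ in the treatment alone as far as the labels say. The values given are the mean normalized read counts of each transcript, which the authors formed over libraries after scaling, so no level can be assigned to treated or to untreated cells. Which libraries entered the mean is not given in the sources used here, and the methods also name cells with 5 µM KH-3. The table has no value per library. Depth is therefore unknown, no error or test can be given for any level, and a difference between DMSO and KH-3 is not analysed here. In such bulk RNA, fewer cells of a kind and less RNA per cell cannot be told apart.

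EMT is the programme by which epithelial cells give up their junctions and polarity and become motile. SNAI1 and SNAI2 are zinc finger repressors that bind E-boxes in promoters of epithelial genes such as CDH1, ZEB1 and ZEB2 are zinc finger homeobox repressors of the same genes, and TWIST1 is a basic helix-loop-helix factor. Cells that have passed through the programme typically exchange E-cadherin for N-cadherin or cadherin-11, and build vimentin filaments and a fibronectin matrix.

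The members were spread over most of the range of levels in the table. To compare genes, the mean normalized read count of each listed transcript was divided by its length in kb, and these values were summed for each gene. The lowest mean count of any listed transcript was 7.34, and the median gene had a level of 108 per kb. VIM, CDH11 and CD44 lay above this median, and SNAI2, ZEB1, SNAI1, FN1 and CDH2 lay below it. The highest member, VIM, had 4076 times the level of the lowest, CDH2.

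**Figure D1:**
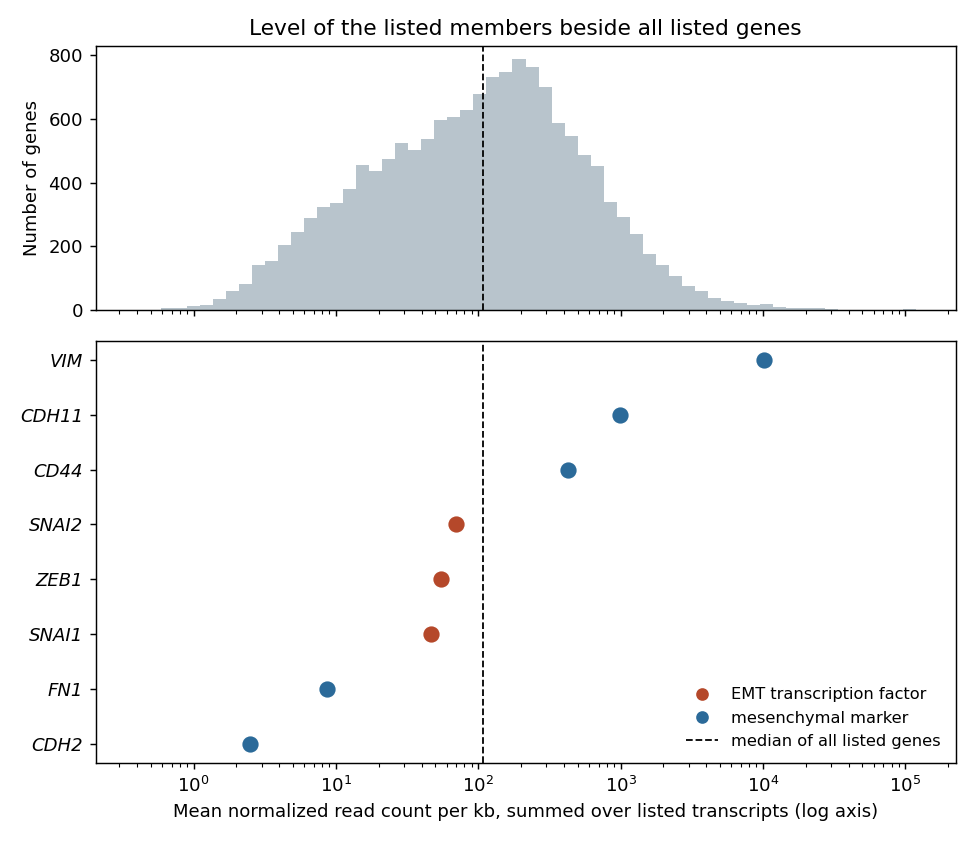
Level of the listed members beside all listed genes, as mean normalized read count per kb on a log axis. The upper panel counts the 15113 listed genes by level, the lower panel shows 1 point per member (red for transcription factors, blue for mesenchymal markers), and the dashed line is the median gene at 108 per kb, with VIM, CDH11 and CD44 to its right.

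Of the transcription factors, SNAI2 (Slug; chr8:48917598-48921740, minus strand) was the highest, with a mean count of 140 and a level of 69.4 per kb, at the 41.0th percentile of listed genes. ZEB1 (chr10:31318495-31529814, plus strand) had a mean count of 304 over 4 transcripts and a level of 54.4 per kb, at the 36.4th percentile. SNAI1 (Snail; chr20:49982980-49988886, plus strand) had a mean count of 78.2 and a level of 46.4 per kb, at the 33.7th percentile. The factors were close to each other, SNAI2 at 1.28 times ZEB1 and ZEB1 at 1.17 times SNAI1 on the scale per kb. With no spread between libraries these neighbours could not be separated, and their order did change with the way transcripts were counted. ZEB1 fell below SNAI1 when each gene was represented by the transcript with its highest count, and rose above SNAI2 when counts were not divided by length. All coordinates are those of hg38.

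VIM (chr10:17228241-17237593, plus strand), which encodes the intermediate filament protein vimentin, had a mean count of 21693 over 5 transcripts. Its level of 10135 per kb placed it at rank 53 of 15113 genes, 93.6 times the median gene.

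Among the surface proteins, CDH11 (chr16:64943753-65126112, minus strand), a type II cadherin of mesenchymal cells, had a mean count of 3148 and a level of 983 per kb, at rank 1182. CD44 (chr11:35138882-35232402, plus strand), a receptor for hyaluronan, had a mean count of 1837 and a level of 427 per kb, at rank 2904. CDH2 (chr18:27932879-28177946, minus strand), which encodes N-cadherin, had a mean count of 9.29 and a level of 2.49 per kb, at the 1.36th percentile. Thus CDH11 held most of the reads of the pair of cadherins, whereas the only CDH2 transcript stood at 1.27 times the lowest count that the table lists. Without the division by length CDH2 was at the 3.49th percentile.

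FN1 (chr2:215360440-215436073, minus strand), which encodes the matrix glycoprotein fibronectin, was also low. Its 4 transcripts had a summed mean count of 74.6 and a level of 8.64 per kb, at the 9.85th percentile. FN1 transcripts are long, and without the division by length the gene was at the 28.3th percentile, whereas with its top transcript alone it was at the 2.25th percentile.

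The 24 transcripts of the members comprised 16 annotated as protein-coding, 3 as targets of nonsense-mediated decay (NMD, the pathway that degrades mRNAs with a premature stop codon), 3 as retaining an intron and 2 as processed transcripts without a reading frame. SNAI1, SNAI2 and CDH2 had 1 listed transcript each. The transcript with the largest share per kb was protein-coding in 7 of the 8 members, the exception being VIM.

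**Figure D2:**
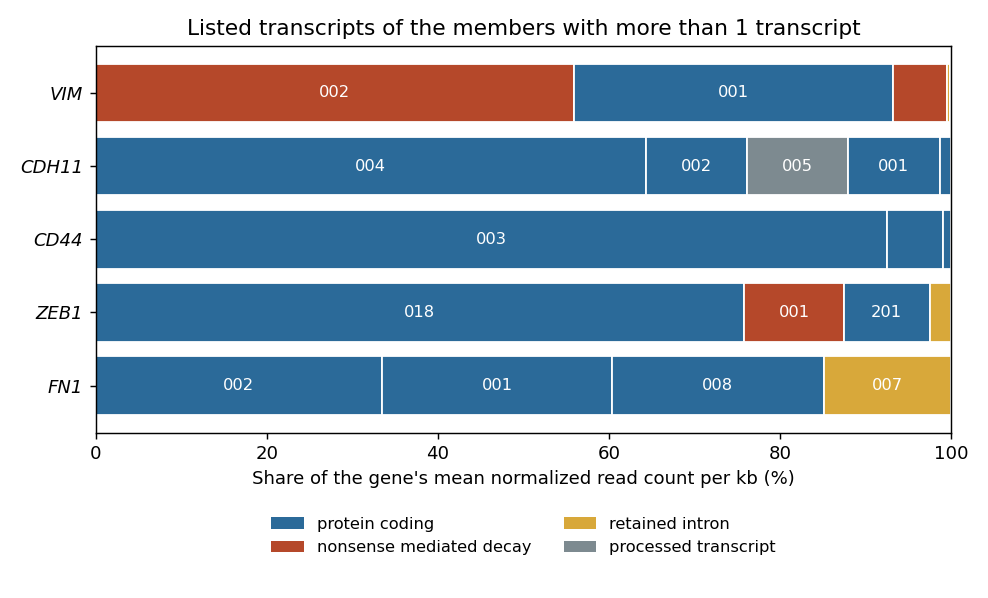
Share of each listed transcript in its gene's mean normalized read count per kb, in percent, for the 5 members with more than 1 transcript. Each bar is a gene and each segment a transcript, coloured by annotated type and numbered where it holds at least 10%, and the NMD segment of VIM-002 takes 55.9% of VIM.

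For VIM, the NMD transcript VIM-002 had a mean count of 12867 and 55.9% of the gene's level per kb, and the protein-coding VIM-001 had a mean count of 7072 and 37.4%. A further NMD transcript, VIM-003, had a mean count of 1707 and 6.32%. VIM-009 and VIM-007 had mean counts of 25.1 and 22.7. NMD transcripts took 67.3% of the NMD and coding counts of VIM together. The median of this share was 13.8% over the 2284 genes with both kinds, and 184 of them (8.06%) had a share at or above that of VIM. Among the 370 such genes in the top 10% by level the median was 8.94%, and 36 were at or above VIM. In ZEB1, the other member with both kinds, the share was 13.3%.

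VIM-002 differs from VIM-001 by 1 retained intron. This intron, chr10:17235890-17236293, is 404 bases long and follows the 44-base exon 7. All 1868 bases of VIM-001 are also in VIM-002, of which they make up 82.2%. A read outside the intron and its edges therefore fits both transcripts, and the split between them rests on the share that the authors' estimator (eXpress, which assigns reads that match several transcripts) gave to each. The open frame of VIM-002 runs from exon 7 into the intron and ends there 23 bases on, after 431 codons instead of 466. The stretch from the start of exon 7 is shown for both, with the stop codon of VIM-002 and the exon 8 bases of VIM-001 in capitals, since these letters distinguish the transcripts. The first is chr10:17235846-17235912 and the second joins chr10:17235846-17235889 to chr10:17236294-17236316, all on the plus strand of hg38.
VIM-002: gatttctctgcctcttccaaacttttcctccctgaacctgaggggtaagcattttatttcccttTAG
VIM-001: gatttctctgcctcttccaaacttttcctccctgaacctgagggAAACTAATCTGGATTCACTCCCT

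**Figure D3:**
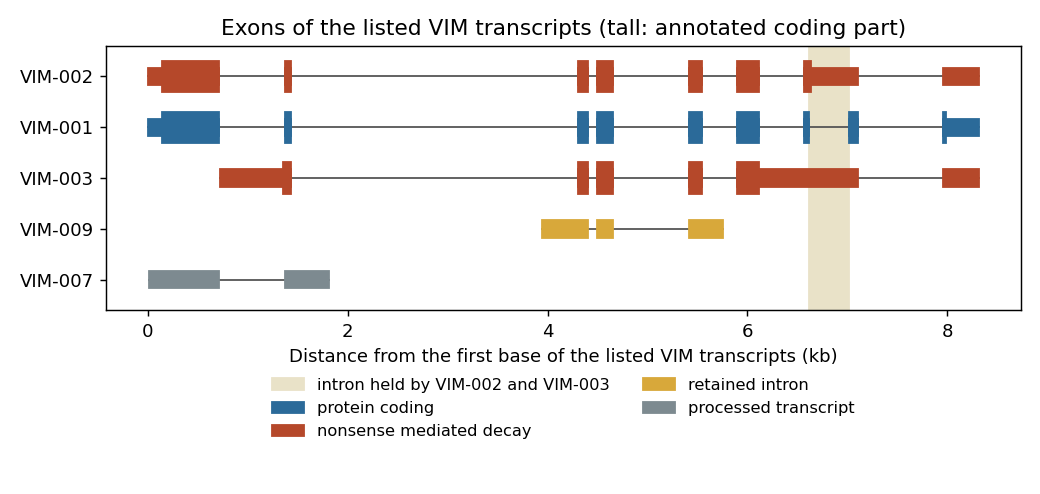
Exons of the 5 listed VIM transcripts against the distance in kb from the first base of the listed transcripts, with coding parts drawn tall and colour giving the annotated type. The shaded band is the 404-base intron that VIM-002 and VIM-003 hold, and the coding part of VIM-002 ends just inside it.

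For CDH11, the leading transcript was a short one. CDH11-004, 2395 bases long, had a mean count of 1515 and 64.3% of the gene's level per kb. The transcripts CDH11-002 and CDH11-001, which have long 3′UTRs of 4338 and 3850 bases, had mean counts of 803 and 730 and shares of 11.9% and 10.8%. The processed transcript CDH11-005 had a mean count of 53.8 and a share of 11.7%, and CDH11-019 had a mean count of 46.2. By counts, without the division by length, CDH11-004 took 48.1%. It has no base that is absent from the other listed transcripts, so that its share too depends on the assignment of shared reads.

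CDH11-004 skips the 400-base exon chr16:65004642-65005041, which holds the start codon of CDH11-001. Its annotated frame starts at a later ATG and has 670 codons, 126 fewer than the 796 of CDH11-001. The junctions are shown 15 bases to each side, with the exon downstream of the join in capitals, and then the start sites with the ATG in capitals. The start of CDH11-001 is at chr16:65004852-65004881 and that of CDH11-004 at chr16:64998689-64998718, and all are written along the minus strand of hg38.
CDH11-001 junction: caatgggtgaagaagAAGCTAACTGGGGAC
CDH11-004 junction: caatgggtgaagaagCTTCATTCAGATATT
CDH11-001 start: acgtaaccaaaaATGaaggagaactactgt
CDH11-004 start: cagtacacgttgATGgctcaggcggtggac

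For CD44, 1 transcript carried nearly all of the signal. CD44 is spliced into a standard form, common in mesenchymal cells, and into variant forms that include some of the alternative exons in the middle of the gene. CD44-003 had a mean count of 1813 and 92.5% of the gene's level per kb. It joins chr11:35190065 to chr11:35214852 and so skips 24786 bases with 9 coding stretches of the reference, of which it holds 0. CD44-036, an incomplete model of 560 bases, holds 1 of them, a 126-base exon, and had a mean count of 15.7 and a share of 6.55%. CD44-006 had a mean count of 7.80. Of the 4288 reference bases of CD44-003, 3373 (78.7%) are in no other listed transcript. Among the listed transcripts, reads of these bases fit it alone, and they do not bear on the alternative exons. Whether unlisted CD44 transcripts share these bases, and so their reads, was not checked. The share of CD44-003 is therefore no measure of how often those exons are skipped. CD44-006 also holds 0 of the 9 stretches, so the join does not set CD44-003 apart from it. The junction follows as in CD44-003, 15 bases to each side, with the downstream exon in capitals.
CD44-003 junction: gaatccctgctaccaGAGACCAAGACACAT

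In ZEB1 and FN1, protein-coding transcripts held most of the level per kb, at 85.9% and 85.1%. ZEB1-018, with 1124 codons, had a mean count of 224 and 75.8% of the level of ZEB1. The NMD transcript ZEB1-001 followed with a mean count of 39.4 and 11.6%, then a further protein-coding transcript, which release 44 does not hold, with 32.8 and 10.1%, and ZEB1-005, which retains an intron, with 8.20.

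FN1 was divided more evenly. FN1-002 had a mean count of 25.2 and 33.5% of the level per kb, FN1-001 had 20.6 and 26.8%, FN1-008 had 17.0 and 24.8%, and the intron-retaining FN1-007 had 11.8 and 14.9%. A 273-base exon (chr2:215392931-215393203) is in FN1-002 and FN1-001 and is left out of FN1-008. Another exon of 270 bases (chr2:215380811-215381080) is in all 3 coding transcripts. With so few reads per transcript, the order of the FN1 forms is uncertain.

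HuR, the protein that KH-3 inhibits, binds AU-rich elements, which lie mostly in 3′UTRs. The pentamer ATTTA, then the heptamer TATTTAT, then its extension to the nonamer TTATTTATT, written in DNA so that T stands for U, were therefore searched on the sense strand of the annotated 3′UTRs in GENCODE release 44. Each longer motif contains the shorter ones, and overlapping matches were counted. In the leading protein-coding transcript, 7 of the 8 members held at least 1 ATTTA. Over all 11900 genes with such a 3′UTR this share was 72.7%, and 35.1% held TATTTAT and 9.25% TTATTTATT. A match is a description of the sequence, and binding was not measured in these libraries. From a separate binding assay in this line, the authors report that SNAI1 mRNA appears not to be bound directly by HuR.

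ZEB1 held 8 ATTTA in its 1938-base 3′UTR, and was the only member in which TTATTTATT was found, once. CD44 held 7 ATTTA and 3 TATTTAT in 3069 bases, FN1 held 4 and 2 in 1101 bases, and SNAI1 held 3 and 1 in 830 bases. SNAI2 held 2 ATTTA in 1209 bases and no TATTTAT. VIM had 1 ATTTA in a 3′UTR of 322 bases, and CDH2 had 1 in 1072 bases. CDH11 depended on the transcript, with 0 matches in the 56-base 3′UTR of CDH11-004 and 15 ATTTA and 1 TATTTAT in the 4338 bases of CDH11-002. Since longer 3′UTRs hold more matches, each count was set beside the genes in the same 10% of 3′UTR length. With the leading transcript of each gene, the median number of ATTTA among these was 4 for ZEB1, 8 for CD44 and 2 for FN1, SNAI2 and CDH2. It was 1 for SNAI1 and 0 for VIM and CDH11-004. CD44 and CDH2 were each 1 match below this median, SNAI2 and CDH11-004 were at it, and ZEB1, FN1, SNAI1 and VIM were above it. The placement of CD44 and CDH2 depended on this choice. With the longest 3′UTR of each gene the median was 6 for CD44, which was then above it, and 1 for CDH2, which was at it. In that setting it was 9 for CDH11-002, which was above it. The 3′UTR of SNAI1 was poor in A and U, at 46.1%, against a median of 58.3% over all genes, and those of SNAI2, CDH2, ZEB1, VIM and FN1 were above it, at 68.6%, 68.6%, 68.2%, 67.7% and 64.9%. CDH11-004 and CD44, at 60.7% and 60.1%, were nearer to the median. Among genes in the same 10% of 3′UTR length, the median for SNAI1 was 54.7%, and 27.2% of these genes were lower than SNAI1. The matching medians were 56.8% for SNAI2, CDH2, FN1 and CDH11-004, 59.6% for ZEB1, 54.0% for VIM and 60.3% for CD44.

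**Figure D4:**
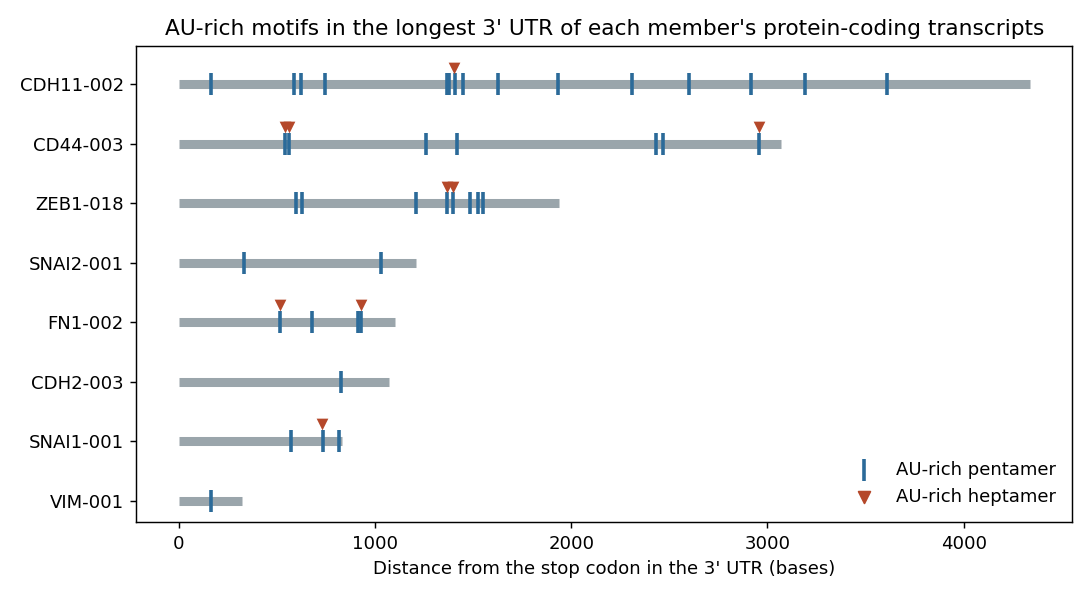
AU-rich motifs in the longest reference 3′UTR among the listed protein-coding transcripts of each member, by distance from the stop codon in bases. Grey bars are 3′UTRs, blue ticks the pentamer ATTTA and red triangles the heptamer TATTTAT, and CDH11-002, the longest of those drawn, carries 15 ticks and 1 triangle.

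Windows of 25 bases around TATTTAT, in capitals, are shown, 1 for each member with such a match, so that the letters around the motif can be compared between members. They are read 5′ to 3′ along each transcript, at chr20:49988779-49988803 (SNAI1, plus strand), chr10:31528652-31528676 (ZEB1, plus strand, where it lies in the longer TTATTTATT), chr11:35229866-35229890 (CD44, plus strand), chr16:64946672-64946696 (CDH11, minus strand) and chr2:215361026-215361050 (FN1, minus strand) of hg38.
SNAI1: gtacactggTATTTATatttcaaac
ZEB1: atatttcttTATTTATtacacagtg
CD44: gggtgaagcTATTTATctgtagtaa
CDH11: taataacccTATTTATgatctgttg
FN1: cttacctgtTATTTATcaatttttc

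Related genes were taken from lists by function, and levels are again mean normalized read counts per kb. Among 13 other transcription factors of EMT, 9 were listed, 3 above and 6 below the median gene, and their own median was 43.1 per kb, near the levels of SNAI1 and ZEB1. The highest were FOSL1 at 1729, ETS1 at 734 and SOX9 at 207 per kb, and SNAI3, TWIST2, FOXC2 and GSC were not listed. Corepressors that SNAI1 and ZEB1 recruit were listed in 10 of 10 cases with a median of 421 per kb, led by the histone deacetylases HDAC1 at 1555 and HDAC2 at 1397 and the histone demethylase KDM1A at 747 per kb. This median lies above the level of each of SNAI1, SNAI2 and ZEB1.

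Of 10 genes for the turnover of SNAI1 protein, 9 were listed with a median of 140 per kb, the highest being the kinase CSNK1A1 at 1244, the ubiquitin ligase subunit FBXO11 at 334 and the kinase GSK3B at 315 per kb. DUB3 was not listed under that symbol. The TGF-beta and SMAD pathway, a main inducer of EMT, was listed in 12 of 12 cases, 7 above and 5 below the median gene, with a median of 181 per kb. Its receptor TGFBR2 had 850, the signal transducer SMAD3 had 603 and the ligand TGFB2 had 506 per kb. Of 8 splicing regulators of EMT, 7 were listed with a median of 331 per kb (135 per kb with protein-coding transcripts only), led by HNRNPM at 2218, SRSF1 at 2074 and QKI at 467 per kb. Of the epithelial splicing regulators, which favour variant CD44 exons, ESRP1 was not listed and ESRP2 had 5.65 per kb.

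**Figure D5:**
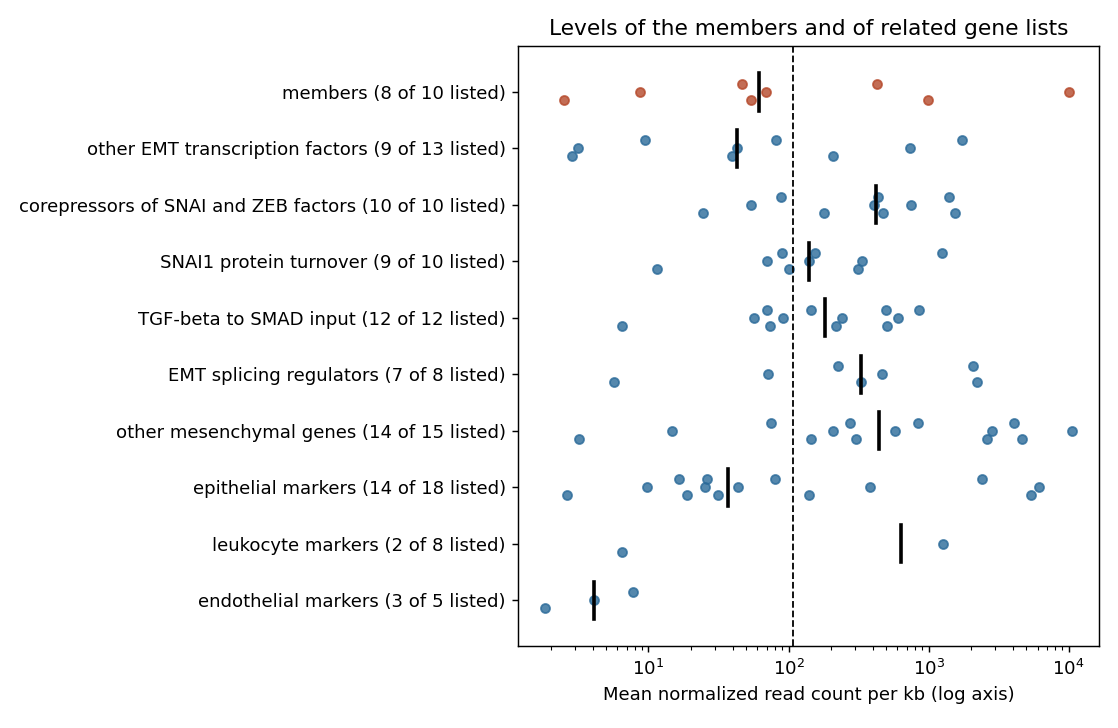
Levels of the members and of related gene lists, as mean normalized read count per kb on a log axis, with 1 point per listed gene, a black bar at the median of each list and a dashed line at the median of all genes. The members (red) span most of the axis, the other mesenchymal genes have a median of 440 per kb and the epithelial markers one of 37.2 per kb.

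Markers were used to check the label of the line. Of 15 other mesenchymal genes, 14 were listed, 11 above and 3 below the median gene, with a median of 440 per kb (248 per kb with protein-coding transcripts only), and the galectin LGALS1 at 10596, the ectonucleotidase NT5E at 4653 and the integrin ITGB1 at 4046 per kb were the highest. THY1 was not listed. Of 18 epithelial markers, 14 were listed, 5 above and 9 below the median gene, with a median of 37.2 per kb (62.0 per kb at a lowest mean count of 20). CDH1, which encodes E-cadherin, and the epithelial regulators GRHL2, OVOL1 and OVOL2 were not listed, and EPCAM had 43.3 per kb. The 5 above the median gene were KRT7 at 6175, KRT18 at 5378, KRT19 at 2426, KRT8 at 384 and the claudin CLDN4 at 139 per kb. The level of VIM thus stood beside high keratin levels in the same column of means. Of the leukocyte markers, CD68, at 1264, and CSF1R, at 6.46 per kb, were listed, while PTPRC, CD3E, CD14, LYZ and ITGAM were not. Of 5 endothelial markers, KDR at 7.78, PECAM1 at 4.08 and VWF at 1.82 per kb were listed, and CDH5 and TEK were not.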

How the data were processed

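The authors prepared the libraries with the TruSeq Standard mRNA kit, used STAR to align reads against transcripts of GENCODE release 24 (hg38), estimated reads per transcript with eXpress and compared groups with DESeq2. Versions are not given in the sources used here. The deposited table holds 1 signal column, the authors' mean normalized read count of each transcript over libraries, with transcript type and length. Its remaining columns (log2 fold change, p-value, q-value) are the authors' own comparison of KH-3 with DMSO and were not used. Groups follow the sample labels. Since no value per library was used, no test was run.

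Here, mean counts were divided by the listed length and summed by gene symbol. Exons, frames, 3′UTRs and sequences come from hg38 with GENCODE release 44, in which 23 of the 24 member transcripts were found, 18 with equal length, and 42550 (97.6%) of all transcripts. Transcripts with at least 10% of their gene's level per kb, and up to 3 genes per list by level, were named, as were the genes not listed, except 1 leukocyte marker that is not reported here. Transcripts under 10% were also named, with their counts, and EPCAM, ESRP2, KRT8 and CLDN4 were named after their values were seen. Members and lists were chosen with earlier results of these data known. Computations were tested on simulated data. Python 3.11.15, numpy 2.4.6, pandas 2.3.3 and matplotlib 3.10.9 were used.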

Additional observations from a re-analysis of the deposited data

How the results depend on the processing

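Alternatives were protein-coding transcripts only, the transcript with the highest mean count alone, lengths shortened by 200 bases, no division by length, a lowest mean count of 20, the longest 3′UTR of a protein-coding transcript and transcripts of equal length in both annotation releases. Of 79 alternative values, 71 stayed within 1.5 times the value reported and 8 did not. The highest percentiles and shares had no room to rise by that factor, so for them this was partly fixed in advance. With a lowest mean count of 20, 7 members stayed listed and CDH2 was lost. Without division by length the percentile of CDH2 was 3.49 and that of FN1 28.3, and with the top transcript alone that of FN1 was 2.25. The leading share of VIM became 100% with coding transcripts only, since VIM-001 is its only listed coding transcript and then takes the place of VIM-002. In this setting the median of the splicing regulators was 135 and that of the other mesenchymal genes 248 per kb. At a lowest mean count of 20 the median of the epithelial markers was 62.0 and that of the leukocyte markers, with CD68 left alone, 1264 per kb. The order of the members was the same with coding transcripts only and with shortened lengths. At least 1 ATTTA was found in 5 of 6 members with equal length and in 8 of 8 with the longest 3′UTR. No paired analysis was possible because the table holds no values per library, and for the same reason no replicate could be left out in turn. Depth is unknown, so absence from the table does not show absence of the RNA.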

Other observations

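Whether the libraries keep the strand was not checked here. If they do not, reads of a gene and of an antisense partner cannot be told apart where their exons overlap. ZEB1-AS1 had a level of 92.4 per kb, above the 54.4 per kb of ZEB1, and its transcript ZEB1-AS1-009, with a mean count of 193, overlaps exons of ZEB1 over 243 bases. VIM-AS1 had a mean count of 235 and no exon base in common with the listed VIM transcripts. ZEB2-AS1, CDH2-AS1 and FN1-AS1 were not listed.

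The transcript that GENCODE release 44 marks as canonical was listed for SNAI1, SNAI2, CDH11 and FN1. In CDH11 and FN1 it was not the leading one, with 10.8% of the level per kb for CDH11-001 and 26.8% for FN1-001. It was not listed for VIM, ZEB1, CDH2 and CD44. Whether release 24, which the authors used, holds those unlisted transcripts was not checked.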
